A study of Arabidopsis thaliana with 4 samples.

Results

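The genes described here are the 200 nuclear genes with the highest signal among those whose signal was stable over 4 arrays of Arabidopsis thaliana shoot apices. They were taken from 13444 probe sets, here called nuclear, that each matched exactly 1 gene not encoded in the plastid. Of these, 12211 had a highest and a lowest array less than 1 log2 unit apart, and the 200 with the highest mean over the 4 arrays were kept. The members are 1.49% of the 13444 and stand for 200 different genes. The members were thus chosen by their mean and their range over all 4 arrays, so these values and the differences between treatments are given as a description.

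The arrays measured RNA of 2 DEX and 2 NoDEX samples. DEX samples came from Ws-0 35S:LEC1-GR seedlings aged 8 days that were kept for 1 h in liquid medium containing 30 µM dexamethasone, a synthetic glucocorticoid. NoDEX samples came from seedlings of the same genotype and age kept for 1 h in the medium alone, and shoot apices were dissected from both. Both groups carry LEC1, a regulator of embryo development, fused to the steroid-binding domain of the glucocorticoid receptor (GR) under the broadly active 35S promoter, and the fusion is inactive without the steroid. No plants without the fusion received dexamethasone, so a response to the steroid itself and one to LEC1 cannot be told apart. The series text calls the replicates biological.

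A shoot apex holds the meristem, whose cells grow and divide, together with the youngest leaf primordia, where plastids become chloroplasts. Growing cells need many ribosomes, and each cytosolic ribosome is built of a small and a large subunit whose proteins are encoded by families of near-identical nuclear genes. Chloroplasts have ribosomes of their own, and most proteins of photosynthesis are encoded in the nucleus and imported.

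The values were log2 expression values, and the 4 arrays had medians between 6.56 and 6.61. Pearson's r across all tested probe sets was 0.992 between the DEX arrays, 0.983 between the NoDEX arrays and 0.969 to 0.979 between groups. Across the 200 members alone, whose levels span less, r lay between 0.839 and 0.943. As a control level, the highest of 27 Bacillus control probe sets was 4.68 to 4.86 in the 4 arrays. The lowest signal of a member in any array was 10.50, and at least 95.6% of each array's probe sets lay below its lowest member. Probe sets differ in how strongly they bind their transcripts, so the rank by signal is not an order of abundance. Each array stands for a mixture of cell types, in which fewer cells of a type and less RNA per cell cannot be told apart.

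The set covers the named genes only. At or above the lowest member mean, 10.91, lay 668 probe sets, of which the members were 29.9%. Another 401 of them (60%) had no gene name in the annotation used here, 34 matched several genes, 12 were plastid-encoded and 21 had a range of 1 log2 unit or more. The share of stable probe sets was 90.5% among the nuclear probe sets with 1 gene at this level, and 90.8% among all nuclear probe sets with 1 gene.

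Few markers of cell types had a probe set matched to exactly 1 gene here, and the others are not analysed here. CLV3, the peptide signal of the stem cells and the 1 measured gene of 12 meristem markers, had 4.66 and 4.54 in DEX and 4.42 and 5.02 in NoDEX, at or below the control level in 3 of the 4 arrays. Only in NoDEX replicate 2 was CLV3 above it. YAB3, a gene of the lower side of young leaves, was above the control level in all arrays with 7.81 and 7.66 in DEX and 7.79 and 7.82 in NoDEX. The guard cell lineage genes FAMA and SPCH were above it as well, FAMA with 7.73 and 7.69 in DEX and 8.18 and 7.85 in NoDEX, and SPCH with 7.12 and 6.19 in DEX and 6.77 and 6.13 in NoDEX. The trichome gene TRY and the seed storage gene PAP85 did not exceed it in any array. LHCB4.1 and RCA, the 2 measured genes of 5 mesophyll markers, were themselves members. For the markers of epidermis, vascular tissue and dividing cells no probe set was matched to exactly 1 gene here.

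Proteins of the cytosolic ribosome were the largest class, with 57 of the 200 members (28.5%). Photosynthesis followed with 21 members (10.5%). Proteins of the cell wall and secreted proteins made up 11, respiration 10, plastid ribosomes 8, and glycolysis and organic acid metabolism 6. The redox and metal class held 4 members. Translation factors, the cytoskeleton, and amino acid and one-carbon metabolism held 3 each. Transport and RNA binding had 2 each, the ubiquitin pathway 1, and 24 members had other roles. No role is given here to 45 members (22.5%). Only 41 members carry a symbol other than their locus code, so the roles of 115 members were assigned from the locus code alone, from general knowledge of the Arabidopsis annotation. The class sizes also depend on which genes had a probe set matched to exactly 1 gene here. On hand-written lists, 82 of 130 large and 45 of 91 small subunit genes of the cytosolic ribosome were measured. For nuclear photosynthesis genes this was 16 of 78, and for plastid ribosomal proteins 10 of 37.

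**Figure D1:**
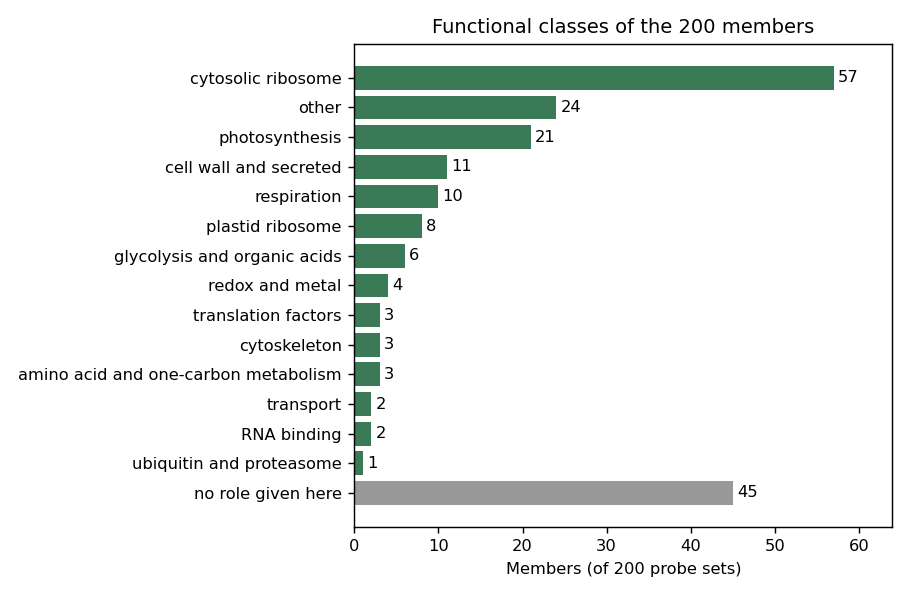
Number of members (x axis, of 200 probe sets) in each functional class (y axis); the grey bar is the members with no role given here. The cytosolic ribosome holds 57 members, more than photosynthesis with 21 and cell wall and secreted proteins with 11 put together. Only named genes are counted, and the share of genes named here differs between classes.

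The classes held different places in the ranking. Photosynthesis supplied 9 of the first 20 members and none of the last 50. Cytosolic ribosomal proteins supplied 2 of the first 20, 8 of the next 30, 27 of the 50 after those, 11 of the following 50 and 9 of the last 50. Respiration first appeared at rank 78. Members with no role given were the most frequent near the end, with 21 of the last 50. The places of the classes thus also depend on which members have a role here.

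The highest mean was that of RCA, Rubisco activase, which keeps the carbon-fixing enzyme Rubisco active. RCA had 13.40 and 13.59 in DEX and 13.29 and 13.39 in NoDEX. DEX replicate 2 was the highest array, and the groups did not overlap. Antenna protein LHCB4.1, which passes light energy to photosystem II, had 13.28 and 13.41 in DEX and 13.28 and 13.35 in NoDEX. The groups overlapped, and the range of 0.13 was among the 5 smallest of all members. PSAE-1, a subunit of photosystem I on the side where ferredoxin docks, had 13.32 and 13.48 in DEX and 13.16 and 13.34 in NoDEX. For PSAE-1 the groups overlapped, with NoDEX replicate 1 lowest.

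Further photosynthesis genes among the first 20 were those for the photosystem II protein PSBW, the photosystem I subunit PSAN, the cytochrome b6f subunit AT2G26500, the thylakoid curvature protein AT4G01150, the geranylgeranyl reductase of chlorophyll synthesis AT1G74470 and the plastid ATP synthase subunit ATPC1. Their means lay between 12.65 for ATPC1 and 13.06 for PSBW, and their ranges between 0.13 and 0.25. By role, 14 of the 21 photosynthesis members act in the light reactions or the thylakoid, 3 are Calvin cycle enzymes or Rubisco activase, 3 act in photorespiration and 1 in chlorophyll synthesis. Among the light reaction proteins, PIFI of chlororespiration had the lowest mean of the class, 11.13.

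The first 20 also held secreted and stress-related proteins. AT2G45180, a lipid-transfer-like protein, was second with 13.34 and 13.29 in DEX and 13.46 and 13.34 in NoDEX. Its values differed by 0.17 at most, and the groups overlapped. COR47, a dehydrin known from cold and drought, had 12.96 and 13.11 in DEX and 13.46 and 12.77 in NoDEX, so that the NoDEX arrays were its highest and its lowest. AT1G78040, a secreted protein of the Ole e 1 type, had 12.85 and 12.79 in DEX and 12.76 and 12.72 in NoDEX, with both DEX arrays above both NoDEX arrays by a small margin.

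Esterases of the GDSL type came at ranks 13 and 18. AT3G16370 had a range of 0.09 around a mean of 12.71, while AT1G29670 had 12.79 and 12.63 in DEX and 12.89 and 12.05 in NoDEX, where NoDEX replicate 2 stood apart below. AT5G62350, a pectin methylesterase inhibitor-like protein, had 12.68 and 12.73 in DEX and 12.72 and 11.78 in NoDEX. Here too NoDEX replicate 2 alone was low and gave the wide range of 0.95. The glycolytic enzyme TPI, cytosolic triose phosphate isomerase, had a mean of 12.61 and a range of 0.23. AT1G09310 and AT3G48140, with means of 13.18 and 12.62, are among the members with no role given here.

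**Figure D2:**
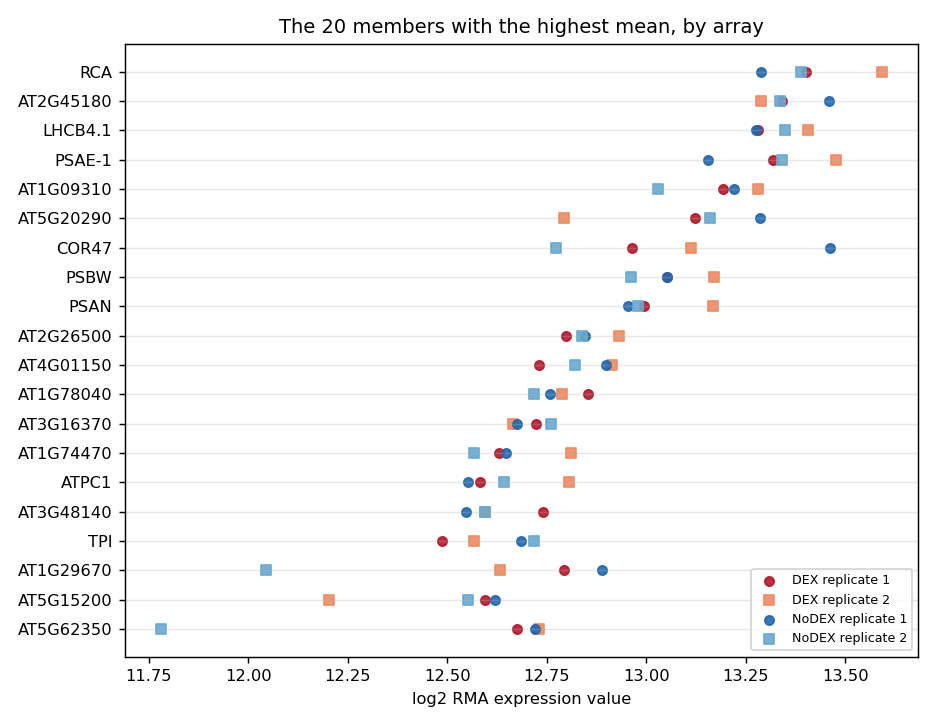
The log2 expression value (x axis) of the 20 members with the highest mean (y axis, highest at the top) in each array; reds are the DEX replicates, blues the NoDEX replicates, circles replicate 1 and squares replicate 2. DEX replicate 2 is the rightmost point of RCA, PSAE-1 and PSAN and the leftmost point of both ribosomal genes, AT5G20290 and AT5G15200; NoDEX replicate 2 lies far left of the other arrays for AT1G29670 and AT5G62350.

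The 57 cytosolic ribosomal proteins comprised 36 of the large and 21 of the small subunit. Their means lay between 10.92 and 13.09, and their ranges over the 4 arrays between 0.14 and 0.85 with a median of 0.38. The highest of them was AT5G20290, which encodes protein S8 of the small subunit and had 13.12 and 12.79 in DEX and 13.29 and 13.16 in NoDEX. AT5G15200, for S9 of the small subunit, had 12.59 and 12.20 in DEX and 12.62 and 12.55 in NoDEX. In both genes DEX replicate 2 was clearly the lowest array, and DEX replicate 1 lay close to the NoDEX values. The large subunit was led by AT3G60245 for L37a, with 12.38 and 12.31 in DEX and 12.63 and 12.57 in NoDEX, and by AT4G27090 for L14, with 12.39 and 12.05 in DEX and 12.49 and 12.34 in NoDEX. The groups did not overlap for L37a and did for L14.

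These 57 genes came from many different proteins and not from a few gene families. Members were found for 24 proteins of the large and 15 of the small subunit. Of these, 11 large and 5 small subunit proteins had 2 or more genes among the members. L12 and S7 had 3 each. The stalk of the large subunit, where translation factors bind, was present with P0 (AT3G09200), with the P1 genes AT1G01100 and AT5G47700, and with the P2 genes AT2G27710 and AT2G27720, which are neighbours on the chromosome. Genes of one ribosomal protein have similar transcripts, and cross-hybridisation between them was not tested. No member's probe set carries the suffix by which the manufacturer marks probes shared between genes. The rule had already left out probe sets matched to several genes, so this does not settle cross-hybridisation.

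The members were set beside all the ribosomal protein genes that could be measured. A hand-written list of cytosolic ribosomal proteins held 130 genes for the large and 91 for the small subunit, of which 127 had a probe set for 1 gene, which is 0.956% of the 13286 nuclear genes measured. Of the 127, 57 (44.9%) were members, 36 of 82 in the large and 21 of 45 in the small subunit. The other 70 ranged in mean from 3.41 to 10.89, and 5 of them exceeded the control level in no array. None of the 127 had a range at or over the stability limit, so level alone kept the 70 out. AT5G27770, for L22 of the large subunit, missed the set by rank with a mean of 10.89.

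On the other lists nearly every measured gene was a member. Of 37 nuclear genes for plastid ribosomal proteins, 10 were measured and 8 were members. Of 78 nuclear photosynthesis genes, 16 were measured and 15 were members, and the remaining one, the antenna gene LHCB4.3, had a mean of 7.58. Most genes on both lists had no probe set matched to exactly 1 gene here, so these shares speak for the measured genes alone. Both lists, and that of the cytosolic ribosomal proteins, were written by hand with earlier results of these data known. All these shares are thus a description. PORB, a protochlorophyllide reductase with a mean of 11.68, was not on the photosynthesis list and had a range of 1.43.

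**Figure D3:**
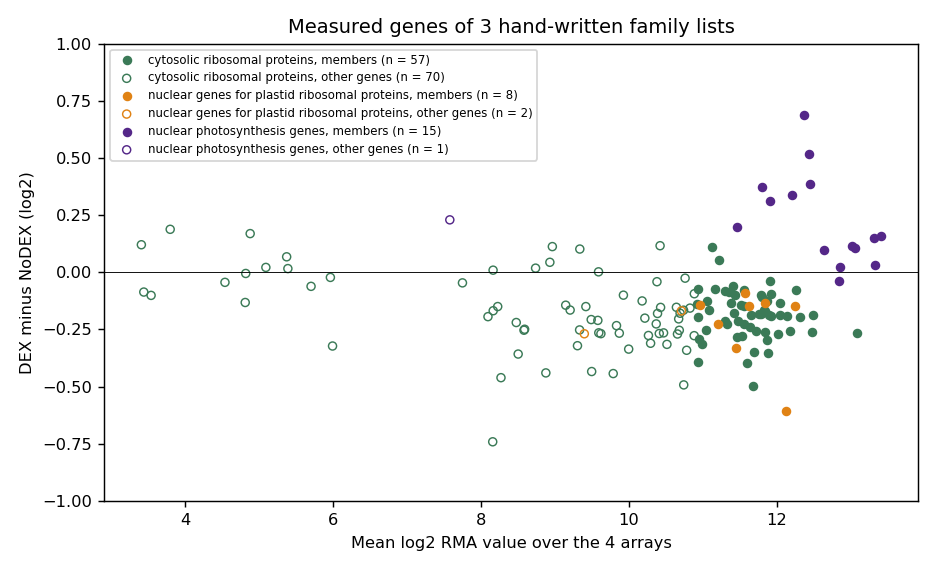
Difference between DEX and NoDEX (y axis, DEX minus NoDEX, log2) against the mean log2 expression value over the 4 arrays (x axis) for every measured gene of 3 hand-written lists; each point is 1 gene, filled for members and open for other genes. The cytosolic ribosomal proteins run from 3.41 to 13.09 along the x axis and mostly lie below 0, with medians of -0.19 for the 57 members and -0.17 for the 70 other genes, while 14 of the 15 photosynthesis members lie above 0.

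The plastid ribosome was represented by 5 proteins of the large subunit, 2 of the small subunit and AT5G24490, a plastid-specific ribosomal protein. AT2G43030, for L3, had 12.27 and 12.07 in DEX and 12.37 and 12.26 in NoDEX, and the groups overlapped by a narrow margin. AT5G24490 had 11.78 and 11.86 in DEX and 12.26 and 12.59 in NoDEX, with both DEX arrays below both NoDEX arrays. AT1G29070, for L34, and AT3G13120, for S10, followed with means of 11.85 and 11.63.

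The 10 respiration members had lower means, 10.98 to 11.67, and narrow ranges, 0.09 to 0.37. They were 6 subunits of complex I, 2 of the cytochrome bc1 complex, 1 of cytochrome c oxidase, and cytochrome c itself. The oxidase subunit AT4G37830 had 11.57 and 11.69 in DEX and 11.60 and 11.81 in NoDEX. CYTC-1 had 11.43 and 11.74 in DEX and 11.36 and 11.68 in NoDEX, with replicate 2 the higher array in both groups. The complex I subunits AT4G20150 and AT5G47570 had means of 11.37 and 11.28.

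Central carbon metabolism was present with 6 members, among them cytosolic enzymes and MAB1, a subunit of the mitochondrial pyruvate dehydrogenase, with a mean of 11.05. GAPC2, glyceraldehyde-3-phosphate dehydrogenase of glycolysis, had 12.42 and 12.31 in DEX and 12.58 and 12.44 in NoDEX. The isocitrate dehydrogenase cICDH had 12.10 and 11.96 in DEX and 12.25 and 12.53 in NoDEX. In both genes the DEX arrays lay below the NoDEX arrays. ALDH11A3, a non-phosphorylating glyceraldehyde-3-phosphate dehydrogenase, lay the other way without overlap, with 11.31 and 11.19 in DEX and 10.89 and 10.60 in NoDEX. ACLA-1, a subunit of the ATP-citrate lyase that supplies acetyl groups in the cytosol, had a mean of 11.21.

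Redox proteins were AT3G11630, a peroxiredoxin of plastids, with a mean of 12.23, the peroxidase PRXR1 with 12.12, the plastid thioredoxin ATHM2 with 11.62 and the glutaredoxin GRXC2 with 11.56. SAMDC, the decarboxylase that commits S-adenosylmethionine to polyamine synthesis, had 12.45 and 12.26 in DEX and 11.82 and 11.77 in NoDEX. Both DEX arrays were above both NoDEX arrays. The formate dehydrogenase FDH and the ketol-acid reductoisomerase AT3G58610 of branched-chain amino acid synthesis had means of 12.07 and 12.03.

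The cytoskeleton members were the alpha-tubulin TUA6 with 11.94 and 11.96 in DEX and 11.88 and 12.22 in NoDEX, the actin-bundling protein WLIM2b with a mean of 11.34 and the microtubule-associated protein SPR1 with a mean of 10.95. Among translation factors, AT5G19510, a subunit of elongation factor 1B, had a mean of 12.08, and AT3G12390, of the nascent polypeptide-associated complex, 11.24. The defensin LCR69 ranked after AT5G62350 among the secreted proteins, with 12.01 and 11.79 in DEX and 12.38 and 12.41 in NoDEX, and here the DEX arrays were lower. The dehydrin AT1G54410 had 11.79 and 11.83 in DEX and 12.54 and 12.32 in NoDEX, also without overlap.

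The ranges of the members over the 4 arrays lay between 0.05 and 0.95 with a median of 0.39, against 0.37 for all nuclear probe sets with 1 gene. A range under 0.5 was found for 139 members (69.5%) and for 67.2% of all nuclear probe sets with 1 gene. AT2G23090, with no role given here, had the narrowest range, with 10.90 and 10.93 in DEX and 10.95 and 10.94 in NoDEX. The next were AT3G52730, a subunit of the cytochrome bc1 complex, with 0.09, AT3G16370 with 0.09 and the complex I subunit AT3G08610 with 0.12.

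The widest ranges were those of AT1G70780 (0.89), AT1G62480 (0.93), SKU5, AT5G62350 and LHCB4.2 (0.95 each). LHCB4.2, the second antenna gene of its kind among the members, had 12.40 and 13.01 in DEX and 12.31 and 12.06 in NoDEX. SKU5, a cell wall protein of directed root growth, had 10.96 and 10.59 in DEX and 10.89 and 11.53 in NoDEX. In both genes 1 array stood above the other 3, DEX replicate 2 for LHCB4.2 and NoDEX replicate 2 for SKU5.

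At the limits of the rule the values differed little. The last members inside the rank were AT1G48830, for ribosomal protein S7, with a mean of 10.92, and AT3G07480 and AT1G73120 with 10.91 each. The first outside were AT2G47380 with 10.90, and JAL34 and AT5G27770 with 10.89 each. Just over the range limit were AT1G13930 with 1.02, CCL with 1.03 and AT1G53210 with 1.05.

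Most cytosolic ribosomal proteins shared their lowest array. DEX replicate 2 was the lowest array for 53 of the 57 cytosolic ribosomal proteins, and the highest array was NoDEX replicate 1 for 32 and NoDEX replicate 2 for 22. The median deviation of the 57 from each gene's own mean was 0.02 in DEX replicate 1 and -0.20 in DEX replicate 2, against 0.10 in NoDEX replicate 1 and 0.07 in NoDEX replicate 2. Among the 70 measured ribosomal genes outside the set, DEX replicate 2 was the lowest array for 40, with a median deviation of -0.17. Over all 22746 tested probe sets it was the lowest array for 5681.

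Photosynthesis members were high where the ribosomal proteins were low. DEX replicate 2 was the highest array for 19 of 21, and the median deviations were -0.02 in DEX replicate 1 and 0.20 in DEX replicate 2, against -0.13 in NoDEX replicate 1 and -0.09 in NoDEX replicate 2. NoDEX replicate 2 was the highest array for 8 of 10 respiration members. Over all 22746 tested probe sets the highest array was DEX replicate 2 for 5538 and NoDEX replicate 2 for 6495. In the plastid ribosome class the lowest array was DEX replicate 1 for 4 and DEX replicate 2 for 4, with median deviations of -0.12 and -0.11, against 0.09 and 0.11 in NoDEX. Among the 11 cell wall and secreted proteins the highest array was DEX replicate 1 for 4, DEX replicate 2 for 2, NoDEX replicate 1 for 3 and NoDEX replicate 2 for 2.

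**Figure D4:**
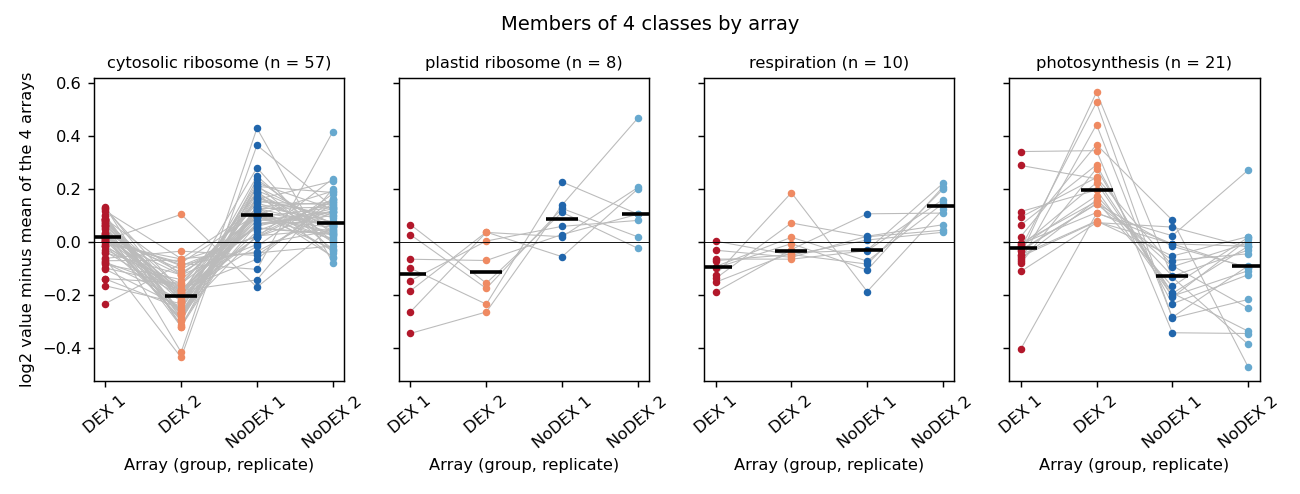
Deviation of each member's log2 value from its own mean over the 4 arrays (y axis) in each array (x axis, DEX replicates left of NoDEX replicates), in 1 panel for each of 4 classes; points are members, thin lines join the values of 1 gene and thick bars are class medians. Cytosolic ribosomal proteins are lowest in DEX replicate 2 (median -0.20), where photosynthesis genes are highest (median 0.20).

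Limma's moderated test, fitted over all 22746 probe sets with Benjamini-Hochberg adjustment, called 539 probe sets (2.37%) at an adjusted p under 0.05, and 0 of the 200 members. Higher in DEX were 1.49% and lower 0.879% of all tested, and of the nuclear probe sets with 1 gene 1.93% were called in either direction. At an unadjusted p under 0.05 were 27 members and 3902 of all probe sets. Because the limit on the range removes genes with large differences, nothing can be read from the count of members. The groups did not overlap in 101 members (50.5%), with DEX above in 29 and DEX below in 72. Over all tested probe sets this was 47.2%, with DEX above in 22.3% and DEX below in 24.8%.

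The median difference of the 200 members, DEX minus NoDEX, was -0.12 on the log2 scale, with 60 above 0 and 140 below, and that of all tested probe sets was -0.02. It was -0.19 for the cytosolic ribosomal proteins, of which 55 of 57 lay below 0. For these genes the median gap between the DEX replicates was 0.22 and that between the NoDEX replicates 0.10, so the difference was no larger than the spread between the DEX arrays. Without DEX replicate 2 the ribosomal median was -0.06, and without DEX replicate 1 it was -0.29. Photosynthesis members had a median of 0.20, with 19 of 21 above 0, and gaps of 0.18 between the DEX and 0.10 between the NoDEX replicates. Without DEX replicate 2 that median was 0.07, and without DEX replicate 1 it was 0.33. The plastid ribosomal proteins had a median of -0.15 with 8 of 8 below 0, and respiration -0.10 with 9 of 10 below 0. The plastid ribosomal median was -0.24 without DEX replicate 2 and -0.22 without NoDEX replicate 1. That of respiration was -0.03 without NoDEX replicate 2 and -0.20 without NoDEX replicate 1.

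The members with the largest differences were chosen after their values were seen. AT5G54940, a translation initiation factor of the SUI1 type, had 12.07 and 11.98 in DEX and 11.39 and 11.27 in NoDEX, a difference of 0.70 ± 0.13 (limma's SE, n = 2 each, limma adjusted p = 0.0709). PSBY, a small protein of photosystem II, had 12.72 and 12.72 in DEX and 12.03 and 12.03 in NoDEX, a difference of 0.69 ± 0.12 with the lowest limma adjusted p of the members, 0.0632. AT2G15960, with no role given here, had 11.49 and 11.46 in DEX and 12.18 and 12.06 in NoDEX, a difference of -0.64. In all of them the replicates of a group lay close together and the groups apart, and none passed the threshold.

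The 3 measured root markers had their highest value in NoDEX replicate 2. PYK10, a beta-glucosidase of endoplasmic reticulum bodies known from roots and hypocotyls, was a member at rank 53 with 11.82 and 12.01 in DEX and 11.57 and 12.28 in NoDEX. The root hair expansin EXPA7 had 4.59 and 4.97 in DEX and 5.03 and 6.25 in NoDEX, and EXPA18 had 4.98 and 5.20 in DEX and 4.86 and 6.46 in NoDEX. EXPA7 was below the control level in DEX replicate 1, where that level was 4.74. Apart from NoDEX replicate 2, both expansins lay little above the control level or below it. The log2 values of these 3 measured genes of 7 root markers summed to 21.39 and 22.19 in DEX and to 21.45 and 24.98 in NoDEX. Their part in the values of SKU5 and the respiration members, which were also high in NoDEX replicate 2, was not tested.

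All members but AT1G32920, which the gene table does not list, were placed on the 5 nuclear chromosomes, with 52 on chromosome 1, 29 on chromosome 2, 50 on chromosome 3, 24 on chromosome 4 and 44 on chromosome 5. Chromosome 3 held 25% of the members and 20.4% of all nuclear probe sets with 1 gene, and the other shares differed by less. Besides the P2 pair, AT1G32460 and AT1G32470, of which AT1G32470 encodes the H protein of glycine decarboxylase, and AT2G42210 and AT2G42220 were next to each other in the gene table. AT4G16980, an arabinogalactan protein with a mean of 11.09, was measured by another probe set with a mean of 5.12, so the level of a gene can depend on the probe set.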

How the data were processed

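Total RNA of shoot apices was hybridised to 4 arrays, 2 for each treatment. The authors deposited log2 expression values, 1 for each probe set and array, made with RMA and the affy package per the submitters' processing notes. No version of either is known here (not given in the sources used). RMA gives the arrays a common distribution, so a shift of all transcripts together cannot be seen. Detection calls were not used. Array signals have no read depth, and precision is limited by having 4 arrays.

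Probe sets numbered 22810. After 64 control probe sets were left out, 22746 were tested. Of these, 13513 matched 1 gene, 503 several, and 8730 were unnamed here. Names came from the platform annotation and a RefSeq gene table. In that table plastid genes carry codes other than ATCG, so the 69 plastid-encoded probe sets were left out by chromosome. By the ATCG code alone, 8 of them would have entered the set, and 192 members would have been shared.

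DEX was set against NoDEX by lmFit and eBayes of limma 3.58.1 (R 4.3.3, two-sided, no block, Benjamini-Hochberg over 22746 probe sets, threshold 0.05). The prior degrees of freedom were 3.09, and the fit was tested on simulated data. Differences are DEX minus NoDEX. The replicate 1 minus replicate 2 differences of the DEX and NoDEX groups correlated at 0.227 across the 22746 probe sets. No pairing was assumed.

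The members and all lists were chosen with earlier results of these data known. The genes named are the 20 highest, the 4 highest of each class of at least 3, the 5 narrowest and 5 widest ranges, those next to the limits, and the measured markers. Genes beyond this rule were chosen after their values were seen. Classes were counted without a test. No gene descriptions were used, so roles come from a hand-written list of loci, and the share of each class among all nuclear genes is given only for the cytosolic ribosomal proteins. The planned description of promoter motifs and protein length was not run, because no sequences were used here.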

Additional observations from a re-analysis of the deposited data

How the results depend on the processing

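Of the 200 members, 139 were shared with a range limit of 0.5, 183 with a limit of 2, 187 when ranked by the lowest array, 182 by the DEX mean, and 181 to 194 without 1 array. Cytosolic ribosomal proteins numbered 52 to 60 and photosynthesis genes 19 to 23 under the alternatives of rank, range limit, probe sets per gene and left-out arrays. At a limit of 0.5, respiration held 16 members, other roles 11, cell wall and secreted proteins 6, translation factors 5 and RNA binding 0. Among the top 100, cytosolic ribosomal proteins made up 37%, photosynthesis 17% and respiration 2%. Cytosolic ribosomal proteins were 19.8% and plastid ribosomal proteins 2.25% of the top 400. Genes with no role given here were 10% of the top 100 and 40.8% of the top 400. The class shares at these sizes thus also depend on how many genes have a role here. With the replicate number as a block, 559 probe sets were called higher in DEX, 300 lower, and 0 members were called. At an adjusted p under 0.01 no probe set was called higher and none lower, that is 0 and 0. Leaving out 1 array leaves a group of 1, which is assumed to vary like the other group. This gave 0 to 734 calls higher, 0 to 458 lower and 0 to 1 members called (AT5G62350, without NoDEX replicate 1, against the 1 NoDEX array that was low for this gene), all counts being 0 without either DEX array. The median member difference was then -0.136 to -0.065, the smallest without DEX replicate 2. Without the dimmest 50% of probe sets, 1 member, PSBY, was called (limma adjusted p = 0.0487). Over all alternatives its limma adjusted p lay between 0.0487 and 0.326. The causes of these changes were not tested. The 2 arrays in each group, and a match to exactly 1 gene for only 59.4% of the tested probe sets, limit all counts.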
